A study of Mus musculus with 4 samples.

Results

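The promoters of 8 matrix metalloproteinase genes that lie outside the Mmp cluster on chromosome 9 were examined for H3K9me2 in the medial layer of the mouse aorta. They comprise the gelatinases Mmp2 and Mmp9, the membrane-type genes with a transmembrane anchor (Mmp14, Mmp15, Mmp16 and Mmp24) and the membrane-type genes with a GPI (glycosylphosphatidylinositol) anchor (Mmp17 and Mmp25). The genes were chosen by name, and all 8 are among the 26354 promoters of the deposited table. H3K9me2 was measured by ChIP-seq in 2 experiments that the labels call v102 and v134. An experiment consists of 1 library of chromatin pulled down with an H3K9me2 antibody and 1 library of the same kind of chromatin before the pull-down, the input. All 4 libraries come from male C57Bl/6J mice, for which the labels name no transgene, mutation or drug, from medial tissue stripped by hand of adipose tissue, adventitia and endothelium and fixed without culture. The labels give neither the age nor the number of animals behind a library, and the medial cells were not sorted by a lineage marker, so a mark in few cells and a weak mark in many cells cannot be told apart.

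Matrix metalloproteinases are zinc-dependent enzymes that are made as inactive proenzymes and cleave proteins of the extracellular matrix. The gelatinases are secreted and degrade denatured collagen and the type IV collagen of basement membranes. Membrane-type enzymes stay on the cell surface, carry a furin cleavage motif before the catalytic domain, and in the case of MMP14 activate the MMP2 proenzyme together with TIMP2. H3K9me2, deposited mainly by the methyltransferases EHMT1 and EHMT2, is a mark of repressed genes in euchromatin and of broad silent domains. In the artery wall MMP2 is made constitutively by vascular smooth muscle cells, whereas MMP9 is known as an inducible enzyme of inflammation.

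Sequences upstream of the annotated start were at hand for 4 of the 8 genes in the RefSeq promoter table for GRCm38.p6. Shown are the 250 bases before the start of 3 membrane-type genes, because their CpG content spans a wide range and the ends of that range, Mmp24 and Mmp14, differed in H3K9me2 reads. Capitals mark CpG dinucleotides, the sites of DNA methylation, and each sequence is read 5′ to 3′ on the strand of the gene. They lie at chr2:155775092-155775341 (Mmp24), chr8:95352046-95352295 (Mmp15) and chr14:54431348-54431597 (Mmp14), all on the plus strand, and end at the RefSeq start, which can lie some bases from the GENCODE start used below.
Mmp24: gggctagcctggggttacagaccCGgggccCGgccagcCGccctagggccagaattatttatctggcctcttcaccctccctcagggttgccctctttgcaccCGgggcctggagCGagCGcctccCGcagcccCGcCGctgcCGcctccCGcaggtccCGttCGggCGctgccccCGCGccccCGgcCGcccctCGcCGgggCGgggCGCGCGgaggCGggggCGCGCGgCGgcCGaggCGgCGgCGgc
Mmp15: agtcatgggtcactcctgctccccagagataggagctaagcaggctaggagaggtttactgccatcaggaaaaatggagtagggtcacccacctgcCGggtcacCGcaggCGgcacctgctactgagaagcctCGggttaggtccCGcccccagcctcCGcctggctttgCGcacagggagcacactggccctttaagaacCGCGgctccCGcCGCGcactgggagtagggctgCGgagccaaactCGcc
Mmp14: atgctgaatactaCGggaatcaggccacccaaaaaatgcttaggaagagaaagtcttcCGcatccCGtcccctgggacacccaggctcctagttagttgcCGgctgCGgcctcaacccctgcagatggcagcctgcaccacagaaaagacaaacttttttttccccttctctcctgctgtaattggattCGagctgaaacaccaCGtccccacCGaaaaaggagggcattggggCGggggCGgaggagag
The Mmp24 stretch holds 33 CpG dinucleotides and has a GC content of 79.2%, the Mmp15 stretch holds 14 at 63.6%, and the Mmp14 stretch holds 10 at 55.2%. The fourth, that of Mmp25 on the minus strand of chromosome 17, holds 17 at 66.0%. For comparison, the median over 27025 RefSeq promoters was 6 CpG dinucleotides in the same 250 bases. The GC box GGGCGG, searched on both strands, occurred 3 times in the Mmp24 stretch, 2 times each in those of Mmp14 and Mmp25 and once in that of Mmp15, and 32.9% of all RefSeq promoters held it at least once. The AP-1 motif TGANTCA and the letters TATAAA were in none of the 4 stretches, against 6.87% and 13.0% of all promoters. A match of letters is a description of the sequence and not a site of binding.

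Reads were counted by the authors within 1 kb either side of each transcription start site, so all windows have the same length. Over the listed promoters the ChIP libraries hold 162233 (v102) and 229605 (v134) reads and the input libraries 619100 and 1084349, which are not sequencing depths. The 30 mitochondrial promoters took 14.3% and 7.53% of the input reads but 0.20% and 0.18% of the ChIP reads. The median promoter had 4 and 5 ChIP reads, so a single window carries a large counting error. Each promoter is described by a pair of measures. The first is the ChIP/input ratio of 1 experiment after each library is divided by its total over the table, so that 1 is the ratio of all promoters together. The second is the log2 of that ratio with a pseudocount of 1 read, averaged over the experiments and ranked among the 26354 promoters. Intervals are 95% Wilson intervals of the share of ChIP reads, and hold for counting error alone, as PCR copies of 1 molecule were not told apart by molecular identifiers.

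Among the 8 promoters, Mmp9 had the most H3K9me2 reads relative to input and Mmp14 and Mmp17 the fewest. Mmp24, Mmp16 and Mmp2 lay in the middle of the range of all promoters, Mmp15 lay low in both experiments, and Mmp25 lay low in v102. By edgeR's quasi-likelihood test of ChIP against input counts, with Benjamini-Hochberg adjustment over all 26354 promoters, Mmp14 and Mmp17 were called below input, meaning fewer ChIP reads for their input than the TMM normalization sets as typical, and 0 of the 8 were called above it. The count of 2 of 8 below input stands beside 17.0% of all promoters, and the count of 0 of 8 above input beside 18.6% of all promoters. At an unadjusted edgeR p under 0.05, 4 members were below and 1 above, beside 6542 below and 5646 above of all 26354 promoters. By DESeq2, whose adjusted p was defined at 1 of the 8 (Mmp9), 0 were called, beside 0.319% of all promoters with a defined value below input and 36.1% above. At an unadjusted DESeq2 p under 0.05 2 were below and 0 above, beside 2497 below and 3987 above among all 26354 promoters. With library totals in place of TMM, 3 of the 8 were below input, beside 21.5% of all promoters. Mmp14, Mmp15 and Mmp17 were in the lowest quartile of the log2 ratio in each experiment, as were 12.7% of all promoters. The members' median percentile of the mean log2 ratio was 33.7, against 50 for all promoters by definition.

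Mmp9 encodes gelatinase B. The gene (ENSMUSG00000017737.2, GRCm38 chromosome 2, 164940780 to 164955850, plus strand) has 4 annotated transcript starts in GENCODE, of which 1 falls in the window around the gene's own start. Its window had 10 ChIP and 18 input reads in experiment v102 and 16 ChIP and 47 input reads in experiment v134. With the ratio of all promoters, 14.7 ChIP reads would have been counted over both experiments where 26 were. The scaled ratio was 2.12 (interval 0.996 to 4.51) in v102 and 1.61 (0.918 to 2.81) in v134. Both values were above 1, while both intervals reached 1. Its mean log2 ratio was 0.94 ± 0.28 (SD, n = 2), at percentile 80.6, and Mmp9 alone of the 8 was in the highest quartile in each experiment, as were 17.7% of all promoters. The fitted log2 fold change over input was 0.96 (standard error 0.43), which did not pass the adjusted threshold (edgeR, adjusted p = 0.0628).

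Mmp2 encodes gelatinase A, and its gene is ENSMUSG00000031740.8 (GRCm38 chromosome 8, 92827291 to 92853420, plus strand). Its window had 4 ChIP and 15 input reads in v102 and 3 ChIP and 36 input reads in v134. The scaled ratio was 1.02 in v102 and 0.394 in v134, so the first experiment placed Mmp2 at the ratio of all promoters and the second below it. Its mean log2 ratio was -0.36 ± 0.87 (SD, n = 2), at percentile 48.8, and the fitted log2 fold change was -0.58 (standard error 0.65, edgeR adjusted p = 0.496). Between the gelatinases, the summed ChIP/input ratio of Mmp9 was 2.91 times that of Mmp2 (interval 1.14 to 6.76 after 0.5 was added to each count). A two-sided Fisher's exact test of the summed reads gave p = 0.0251 and 0.0782 after adjustment over the 28 pairs of members, so that this difference did not pass. Mmp9 was the higher in each experiment, by 2.08 times in v102 and 4.09 times in v134.

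The transmembrane group split. Mmp14 (ENSMUSG00000000957.11, chromosome 14, 54431612 to 54445364, plus strand), the activator of the MMP2 proenzyme and a collagenase of the pericellular space, had 1 ChIP read in each experiment against 33 input reads in v102 and 37 in v134. At the ratio of all promoters 16.5 ChIP reads would have been counted in place of 2. The scaled ratio was 0.116 (interval 0.020 to 0.669) in v102 and 0.128 (0.0221 to 0.737) in v134, so that Mmp14 was below 1 beyond counting error in both experiments. Mmp14 was at percentile 5.54, and the fitted log2 fold change was -2.85 (standard error 0.84, edgeR adjusted p = 0.00410). Of its 7 annotated transcript starts, 6 fall within the window.

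Mmp15 (ENSMUSG00000031790.8, chromosome 8, 95352268 to 95375080, plus strand), a close relative of Mmp14, had 2 ChIP and 27 input reads in v102 and 1 ChIP and 26 input reads in v134. Its scaled ratios of 0.283 and 0.182 were both low, although both intervals reached 1. It was at percentile 18.6, and its fitted log2 fold change of -1.88 (standard error 0.81) had an adjusted p of 0.0553 by edgeR. Scaling by library totals, which lowers the median of all promoters as well, gave an adjusted p of 0.0348.

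Mmp16 (ENSMUSG00000028226.15, chromosome 4, 17852893 to 18119145, plus strand) and Mmp24 (ENSMUSG00000027612.7, chromosome 2, 155775342 to 155818366, plus strand), whose products are prominent in the nervous system, had more reads. The Mmp16 window had 7 ChIP and 15 input reads in v102 but 6 ChIP and 50 input reads in v134. Its scaled ratio was thus above 1 in v102 (1.78) and below 1 in v134 (0.567), and the intervals of the 2 experiments overlapped. The Mmp24 window had 7 ChIP and 20 input reads in v102 and 4 ChIP and 25 input reads in v134, with scaled ratios of 1.34 and 0.756. Both promoters had a mean log2 ratio near 0, of 0.15 ± 1.10 (SD, n = 2) at Mmp16 and 0.20 ± 0.48 at Mmp24. Their fitted log2 fold changes were -0.01 (standard error 0.51) at Mmp16 and 0.22 (standard error 0.58) at Mmp24, with edgeR adjusted p-values of 0.986 and 0.784.

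The GPI-anchored genes had 4 ChIP against 103 input reads for the pair. Mmp17 (ENSMUSG00000029436.9, chromosome 5, 129584169 to 129611099, plus strand), which is expressed in vascular smooth muscle in the mouse, had 2 ChIP and 25 input reads in v102 and 0 ChIP and 40 input reads in v134. The count of 0 in v134 allows up to 3 reads, where 8.47 would have been counted at the ratio of all promoters, and the interval of the scaled ratio reached 0.454. In v102 the scaled ratio was 0.305 (interval 0.0801 to 1.16). Mmp17 was at percentile 4.77 by the mean of both experiments, 21.3 in v102 and 1.63 in v134, so its place rests more on v134. The fitted log2 fold change was -2.71 (standard error 0.86, edgeR adjusted p = 0.00824). Mmp25 (ENSMUSG00000023903.8, chromosome 17, 23628311 to 23645277, minus strand), an enzyme of leukocytes, had the fewest input reads of the 8, 14 in v102 and 24 in v134, with 0 and 2 ChIP reads. At this depth 3.67 ChIP reads would have been counted in v102 at the ratio of all promoters, a count of 0 allows up to 3, and the interval of the scaled ratio reached 1.05, so that a difference was not detectable. Mmp25 was at percentile 18.6, and its fitted log2 fold change was -1.94 (standard error 0.96, edgeR adjusted p = 0.0961). These values rest on v102, since its percentile was 8.47 in v102 and 38.1 in v134, the log2 fold change from v134 alone was -1.03, and a pseudocount of 5 reads put it at percentile 36.6.

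**Figure D1:**
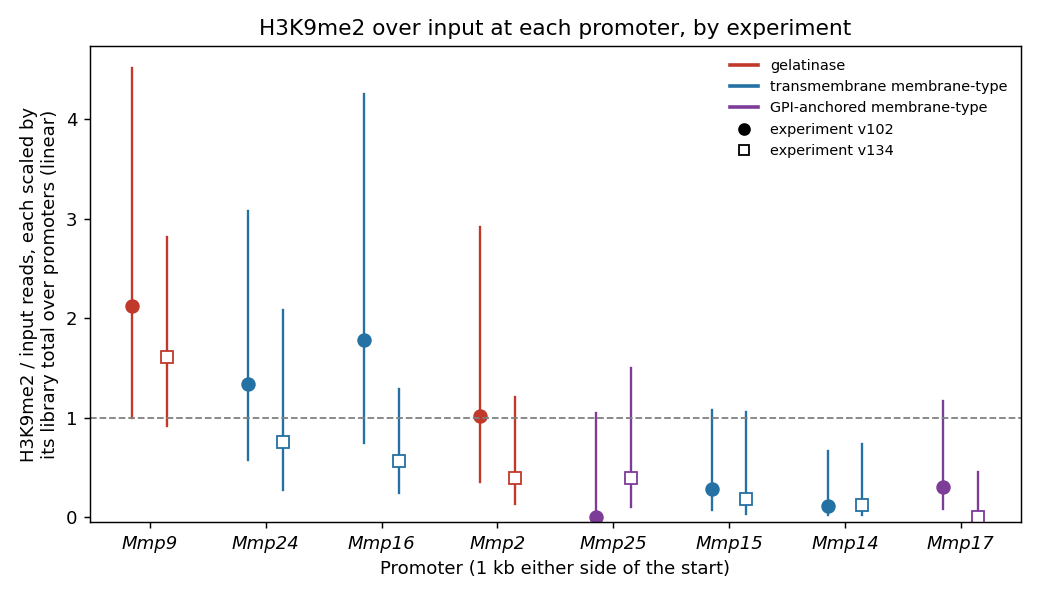
Ratio of H3K9me2 to input reads at the 8 promoters on a linear axis, each library scaled by its total over all promoters, in experiment v102 (filled circles) and v134 (open squares). Vertical lines are 95% Wilson intervals for counting error, the dashed line at 1 is the ratio of all promoters together, and colours mark the gelatinases and the membrane-type groups. Mmp9 lies above the line in both experiments at 2.12 and 1.61, and Mmp14 lies below it in both at 0.116 and 0.128.

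Ordered by the mean log2 ratio, the promoters ran Mmp9, Mmp24, Mmp16, Mmp2, Mmp25, Mmp15, Mmp14 and Mmp17. No 2 neighbours in this order differed beyond counting error by Fisher's exact test on summed reads, with adjusted p-values from 0.407 (Mmp9 and Mmp24) to 1. Of all 28 pairs, 8 differed after adjustment, and each of these had the same direction in both experiments. Mmp9 exceeded Mmp14 by 14.0 times (interval 2.99 to 43.6, adjusted p = 0.000154 by Fisher's exact test), Mmp17 by 13.0 times (2.77 to 40.5), Mmp15 by 7.07 times (1.92 to 19.96) and Mmp25 by 7.60 times (1.60 to 24.2). Mmp24 exceeded Mmp14 by 8.56 times and Mmp17 by 7.94 times, and Mmp16 exceeded Mmp14 by 7.0 times and Mmp17 by 6.50 times. The experiments differed in size here, since Mmp16 exceeded Mmp14 by 15.4 times in v102 and by 4.44 times in v134. A Mantel-Haenszel ratio stratified by experiment was 9.92 for Mmp16 over Mmp17 and lay between 7.24 and 16.4 for the other 7 pairs. The 8 pairs thus set 3 promoters with more H3K9me2 reads against Mmp14 and Mmp17 and, for Mmp9, also against Mmp15 and Mmp25. The test takes reads as independent and leaves out the variation between experiments. On the reads of 1 experiment alone, 1 (v102) and 2 (v134) pairs remained, and Mmp9 over Mmp14 passed in both, with adjusted p-values of 0.0415 and 0.0325 by Fisher's exact test.

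The base composition of the windows differed widely among the 8 genes. GC content in the window 1 kb either side of the annotated start was 50.6% at Mmp9, 52.7% at Mmp2, 53.6% at Mmp16, 54.9% at Mmp25, 58.6% at Mmp14, 62.9% at Mmp15 and 65.1% at both Mmp17 and Mmp24, against a median of 50.9% over 22329 promoters whose symbol matches 1 GENCODE gene. CpG dinucleotides ranged from 31 at Mmp9 and 42 at Mmp2 to 156 at Mmp24 and 158 at Mmp17, with a median of 56 over all promoters. Repeat-masked bases made up 27.1% of the Mmp9 window and 21.2% of the Mmp25 window, and from 4.90% to 12.0% of the other 6. Over all promoters the mean log2 ratio fell with GC content, with a Spearman rho of -0.54 across promoters, which share libraries and are not independent. Across the 8 members rho was -0.53 (n = 8). After the trend with GC content was removed by a lowess fit, Mmp9 was at percentile 91.2 and Mmp24 at 93.9, and these 2 were in the highest quartile in each experiment. Mmp15 moved from percentile 18.6 to 43.3, and Mmp16 from 63.0 to 79.1, with 90.2 in v102 and 54.1 in v134. Mmp14 was at percentile 15.2, with 13.6 in v102 and 24.0 in v134, while Mmp17, at 20.8, was at 43.9 in v102 and 10.1 in v134.

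Mmp24 and Mmp17 make a close comparison, since their windows have the same GC content and nearly the same number of CpG dinucleotides. The Mmp24 window had 11 ChIP reads on 45 input reads in all, and the Mmp17 window 2 ChIP reads on 65 input reads. The ratio at Mmp24 was 7.94 times that at Mmp17 (interval 1.60 to 27.4, Fisher's exact test, adjusted p = 0.0150), and 4.38 times in v102. Neither experiment alone passed for this pair, with adjusted p-values of 0.283 in v102 and 0.183 in v134 by the same exact test. This pair was singled out after the values were seen.

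**Figure D2:**
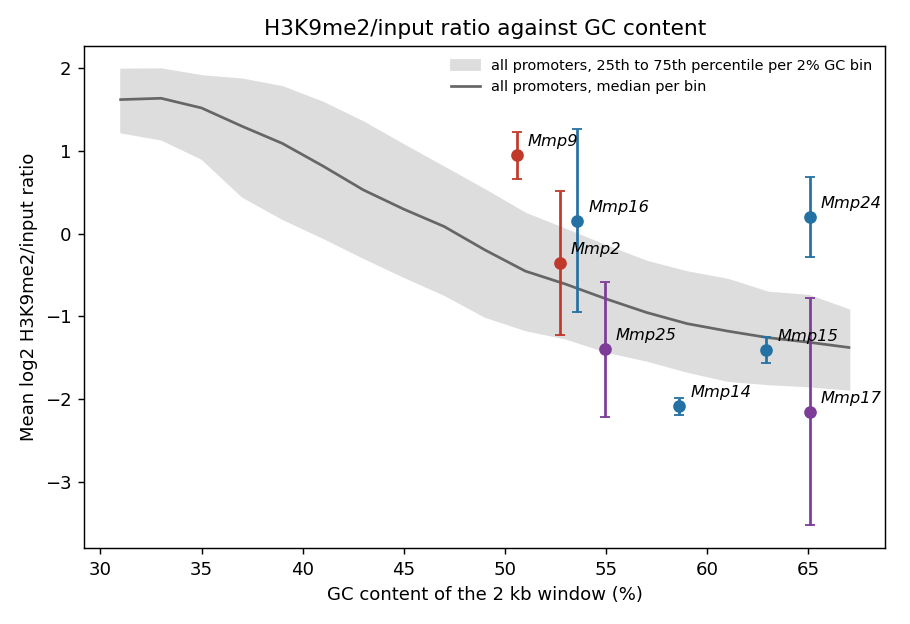
Mean log2 H3K9me2/input ratio of the 8 promoters (points, mean of 2 experiments, bars are 1 SD) against the GC content of the window, coloured by group as red for gelatinases, blue for transmembrane and purple for GPI-anchored genes. The grey line and band are the median and the 25th to 75th percentiles of all matched promoters in bins of GC content. Mmp24 and Mmp17 share a GC content of 65.1% but lie at 0.20 and -2.15.

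None of the 8 windows overlapped the window of the nearest matched promoter on either side, which lay between 4.70 kb (Mrpl52, upstream of Mmp14) and 1388 kb (Gm11861, on the lower side of Mmp16) away. The 16 neighbours were compared with their members by Fisher's exact test on summed reads, and 6 differed after adjustment over the 16. In each of these 6 pairs the window with the higher ratio had the lower GC content. Examples are 50.6% at Mmp9 against 61.1% at Zfp335, and 48.2% at Mrpl52 against 58.6% at Mmp14. The comparison was not adjusted for GC content, and the part of GC content in these differences was not tested. The Mmp9 ratio of 0.40 was above both of its neighbours, 7.33 times that of Zfp335 at 29.0 kb (0.0545, adjusted p = 0.00219, exact test) and 4.8 times that of Slc12a5 at 20022 bases (0.0833, adjusted p = 0.00741, exact test). Zfp335 encodes a zinc finger protein and Slc12a5 the neuronal potassium-chloride cotransporter KCC2, and both had percentiles under 20 (18.1 and 18.9). Mmp14 was on the opposite side of its nearer neighbour. Mrpl52, which encodes a protein of the mitochondrial ribosome, had 7 and 27 ChIP reads on 29 and 71 input reads, a ratio 11.9 times that of Mmp14 (adjusted p = 0.000212, exact test). Lrp10, a lipoprotein receptor gene 32.5 kb on the other side of Mmp14, was below input like Mmp14 (log2 fold change -1.75, standard error 0.64, edgeR adjusted p = 0.0231).

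The Mmp16 gene lies alone, with no matched promoter of the table within 554 kb. The flanking predicted genes Gm11861 and Gm11867 were both above input, at percentiles 89.98 and 88.76, and their ratios were 3.39 and 3.19 times that of Mmp16 (adjusted p = 0.00342 and 0.00381, exact test). At Mmp17, the ratio of Sfswap, 82.9 kb away and coding for a splicing regulator, was 10.2 times that of Mmp17 (adjusted p = 0.00316, exact test), and that of Gm6139 on the other side was 5.69 times (adjusted p = 0.0720). Ratios at Mmp2, Mmp15, Mmp24 and Mmp25 did not pass against either neighbour. Mmp24, at 0.244, stood beside 0.0909 at Procr and 0.0769 at BC029722, with adjusted p-values of 0.141 and 0.166 by the exact test.

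**Figure D3:**
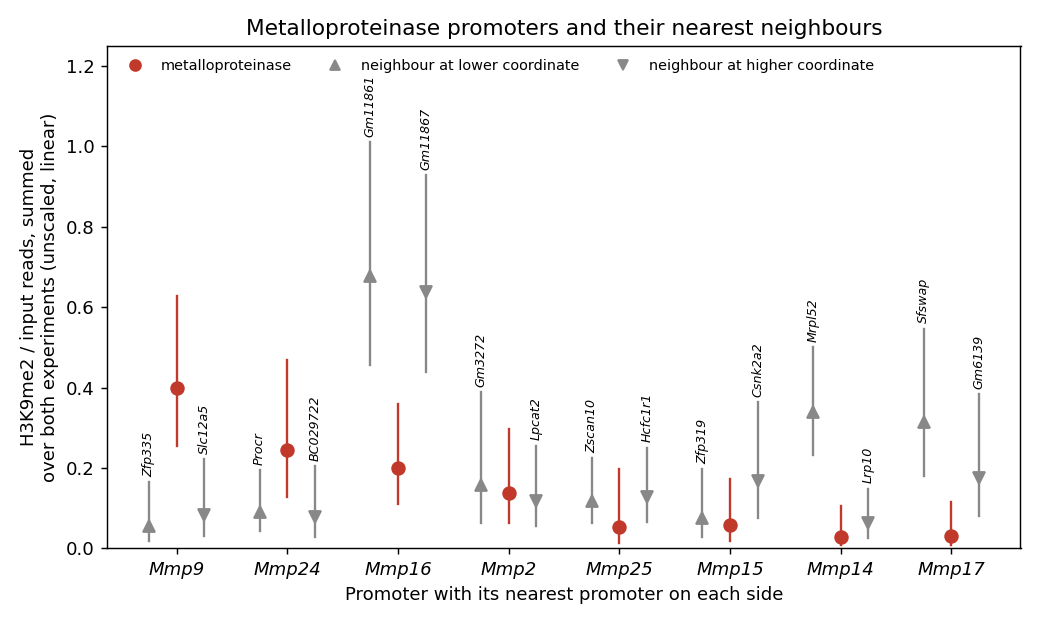
Ratio of H3K9me2 to input reads summed over both experiments, without scaling, at the 8 promoters (red circles) and at the nearest matched promoter at lower (upward triangles) and higher coordinate (downward triangles), with 95% Wilson intervals. Mmp9 at 0.40 lies above both neighbours, and Mmp14 at 0.0286 lies under Mrpl52 at 0.340.

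The other genes of the pathway were described from lists of 36 promoters in all. Of these, 0 were above input and 10 below by edgeR's quasi-likelihood test with adjusted p, beside 18.6% and 17.0% of all promoters. At an unadjusted edgeR p under 0.05 there were 1 above and 13 below, beside 5646 above and 6542 below of all 26354 promoters. With the experiment number as a block, 6 of the 36 were below input, beside 8.30% of all promoters, and Pcsk7, Cd9, Col1a1 and Col4a1 no longer passed (edgeR adjusted p from 0.0536 to 0.0962). DESeq2 defined an adjusted p at 2 of the 36 and called 0. At an unadjusted DESeq2 p under 0.05, 7 were below and 0 above, beside 2497 below and 3987 above among all promoters. Among the 7 substrate genes, 4 were below input, namely the type I and type IV collagen genes Col1a1, Col4a1 and Col4a2 and the fibronectin gene Fn1, with log2 fold changes from -3.48 at Col4a2 to -2.29 at Fn1. Under the block 2 of these 7 were below. The Col4a1 and Col4a2 windows had the same input reads, 20 in v102 and 38 in v134, and 2 and 1 ChIP reads in all. Whether these windows overlap was not examined, so the counts of 4 and 10 may include the same reads under both names. Col1a2 and Col3a1 did not pass, with log2 fold changes of -0.30 and -0.34.

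Of the 5 inhibitor genes, Reck, the membrane-anchored inhibitor, was below input with 0 ChIP reads on 48 input reads, which allows up to 3 reads, where 11.2 would have been counted at the ratio of all promoters. The interval of its summed ratio reached 0.0800, compared with 0.230 for all promoters. Timp1, the X-linked inhibitor whose protein binds the MMP9 proenzyme, was the one promoter of the 36 in the highest quartile in each experiment. It had 7 and 8 ChIP reads on only 9 and 20 input reads, at percentile 86.6, and its log2 fold change of 1.31 (standard error 0.58) had an edgeR adjusted p of 0.0606. Timp2, the partner of MMP14, was at percentile 60.8 with an adjusted p of 0.834.
Among the 8 activation genes, Furin and Pcsk7, which encode proprotein convertases, were below input (log2 fold changes -3.55 and -2.42, standard errors 1.03 and 0.91), whereas the urokinase receptor gene Plaur and the plasminogen gene Plg were both at percentile 63.7 and did not pass. Of the 8 genes for cell-surface partners, the tetraspanin gene Cd9 was below input (log2 fold change -2.01, edgeR adjusted p = 0.0355). Of the 3 clearance genes, Lrp1, the endocytic receptor that takes up metalloproteinases, was below input, with 0 ChIP reads on 51 input reads where 11.7 would have been counted at the ratio of all promoters, and an interval that reached 0.0753. Among the 5 other metalloproteinase genes outside chromosome 9, Mmp28 was below input (log2 fold change -2.29, standard error 0.76, edgeR adjusted p = 0.0113), and Mmp19 had the highest percentile, 64.8.

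**Figure D4:**
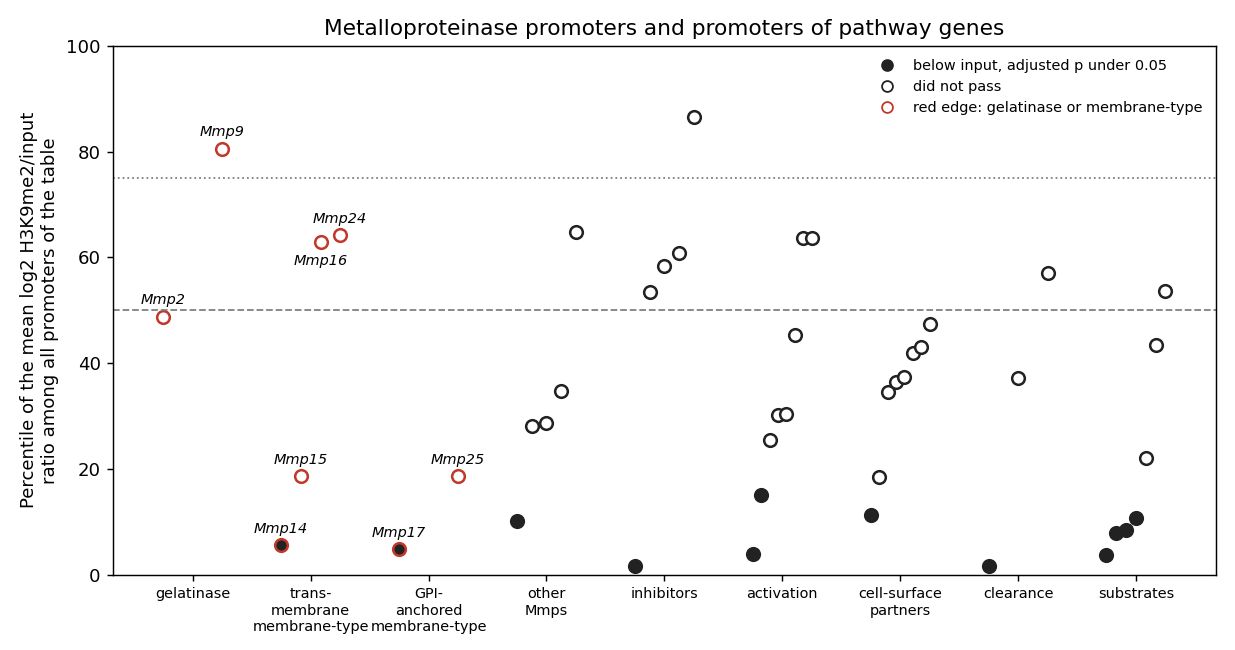
Percentile of the mean log2 H3K9me2/input ratio among all 26354 promoters for the gelatinases, the membrane-type groups (red edges, named) and the genes of 6 pathway lists (black edges). Filled points were below input by edgeR at an adjusted p under 0.05, and the dashed and dotted lines mark percentiles 50 and 75. Only Mmp9 and 1 inhibitor gene, Timp1, lie above the dotted line.

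For orientation, the 10 Mmp promoters of the chromosome 9 cluster had 268 ChIP and 501 input reads, a pooled ratio of 0.535, compared with 0.146 (66 ChIP and 452 input reads) for the 8 members. Of the 10 cluster promoters, 7 were above input by edgeR, compared with 0 of the 8 members and 18.6% of all promoters. With the experiment number as a block 6 of the 10 were above, beside 15.8% of all promoters. By DESeq2, which defined an adjusted p at 7 of the 10, 4 were above, beside 36.1% of all promoters with a defined value. The difference between the groups was not tested. The contractile smooth muscle genes of the media had low ratios at 4 of 5 promoters, between percentiles 0.734 (Myh11, 0 ChIP reads) and 31.1 (Tagln), while Smtn was above input at percentile 88.7. Of the 5, Myh11 alone was called below input by edgeR, beside 17.0% of all promoters. Other cell types also had low promoters, with lowest percentiles of 15.4 (endothelium), 7.13 (adventitial fibroblast) and 11.3 (leukocyte). Their median percentiles were 37.7, 54.4 and 81.0, compared with 25.9 for the contractile genes. Counts of H3K9me2 do not measure expression, so neither the cell type of the sample nor the expression of the 8 genes could be checked in these libraries.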

How the data were processed

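The data are 2 H3K9me2 ChIP and 2 input libraries of mouse aortic media. The authors trimmed reads with Trim Galore 0.4.2 and cutadapt 1.9.1, aligned them with Bowtie2 2.2.7 to GRCm38, counted reads within 1 kb of each start site with SeqMonk, and removed genes with fewer than 20 input reads. The authors deposited raw counts, their sums and the ratio of ChIP over input sums without scaling, and this ratio equalled the quotient of the sums at all 26354 promoters. The lowest summed input was 21 reads. Which annotation release was used and how duplicate reads were treated is not given in the sources used here, and GENCODE M21 positions may differ from the start sites counted. Of the symbols, 22329 (84.7%) match 1 GENCODE gene.

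Counts were tested on the whole table in R 4.3.3, with TMM factors and the quasi-likelihood test of edgeR 4.0.16, and p-values were adjusted by Benjamini-Hochberg (threshold 0.05). DESeq2 1.42.0 was an alternative. Standard errors of log2 fold changes come from the F statistic. The p-values rest on 2 libraries against 2, and the labels do not say whether the experiments used separate animals. The edgeR functions were run on simulated counts drawn from the input proportions, with the same dispersion at every promoter and no experiment effect. That run does not measure the rate of false calls in these libraries. Pairs of members and neighbours were compared by Fisher's exact test, and the neighbour tests were chosen after the values were seen. The lowess fit used a fraction of 0.3. Other values were computed in Python 3.11.15 with scipy 1.17.1 and statsmodels 0.14.6.

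A gene of the lists is not reported here. The members and gene lists were chosen with earlier results of these data known. Named are the 8 members, the control loci, Il6 and Ccl2, and the promoters of the pathway lists that passed the test plus at most 2 others of each. Also named are the nearest matched promoter on each side of a member and the 3 promoters most like the member with the highest ratio. Tagln, Myh11 and Smtn were named after their values were seen. The experiment number pairs each ChIP with its input, as the labels describe the inputs as associated with the ChIP experiments. Deviations of the ChIP libraries from their mean correlated with those of the inputs at 0.10. Chi-square per degree of freedom was 1.52 between the ChIP and 1.28 between the input libraries, more than sampling noise gives.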

Additional observations from a re-analysis of the deposited data

How the results depend on the processing

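With the experiment number as a replicate block, Mmp14 and Mmp17 were below input (edgeR adjusted p = 0.0178 and 0.0417) and 0 members were above. The block left 6 pathway promoters below input and 2187 of all promoters, and turned the log2 fold change of Mmp16 from -0.01 to 0.046. No call on a member changed under the block. With at least 20 reads in each input, which 4 members and 15 pathway promoters pass, 4 pathway promoters were below input, 0 members were in the highest quartile in each experiment (Mmp9 is not tested there), and 2446 promoters were above and 1678 below input. Mmp14 and Mmp17 stayed below input in this setting (edgeR adjusted p = 0.0144 and 0.0245). With a further minimum of 5 summed ChIP reads 1 member, Mmp24, remained, 0 were below input, and 1679 promoters were above and 271 below. That minimum removes windows with few ChIP reads, such as Mmp14 and Mmp17 with 2 each, so neither could be called there. Fewer promoters are tested in these settings. DESeq2 called 3058 above and 27 below and left 17883 adjusted p-values undefined, those of 7 members among them. For Mmp9 the adjusted p was 0.209 by DESeq2 and, over the edgeR settings, from 0.0584 to 0.122. Without mitochondrial promoters the log2 fold change of Mmp16 was 0.012, and the mean log2 ratio of Mmp9 was 0.78 in place of 0.94. Library totals in place of TMM moved the median log2 fold change over all promoters from -0.35 to -0.50 and added Mmp15 below input, 3 members in all. After removal of the GC trend 2 members were in the highest quartile in each experiment. Leaving out each replicate in turn left 1 to 2 of the 8 pairs, and no edgeR test was run there, since 1 library remains in each arm. Pseudocounts move the mean log2 ratio of windows with few reads: with 5 reads in place of 1, Mmp25 went from -1.40 to 0.10 and Mmp14 from -2.08 to -0.65. The cause was not tested for the other changes. Windows of 38 to 70 summed input reads limit what single promoters can show, most of all at Mmp25.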

Other observations

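Likeness to Mmp9 was measured by Euclidean distance over the log2 ratios of both experiments, among 5929 promoters with at least as many input reads. The other members, symbols of Gm followed by a digit and symbols ending in Rik were left out. The 3 most like Mmp9 were Vrk2 (a vaccinia-related kinase gene, distance 0.0375), BC053393 (0.0417) and Sec23ip (a gene of the secretory pathway, 0.0419). The log2 ratios of Vrk2 were 1.15 in v102 and 0.71 in v134, beside 1.14 and 0.74 at Mmp9. Likeness over 2 experiments separates little, since 15 of these 5929 promoters lay within a distance of 0.1 of Mmp9 and 56 within 0.2.

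The control loci of the study, Actb as the negative and Magea2 as the positive locus, bracketed the 8 metalloproteinase promoters by the mean log2 ratio. They did not in each experiment alone. In v102 Mmp9 ranked above Magea2 (percentiles 81.3 and 80.9), and in v134 Mmp17 ranked below Actb (1.63 and 6.82). Actb, the cytoplasmic actin gene, had 1 ChIP read on 84 input reads and was below input at percentile 0.660 (edgeR log2 fold change -4.02, standard error 0.94), lower in rank than Mmp14 and Mmp17. Magea2, an X-linked germline gene, was at percentile 83.9 on 10 ChIP and 22 input reads and did not pass (adjusted p = 0.170), with a rank above that of Mmp9. Il6 and Ccl2, which the paper tested as inflammation-responsive genes, were at percentiles 45.2 and 45.0, near Mmp2 at 48.8. By ChIP-qPCR the paper found H3K9me2 enriched at the Il6 promoter in the aortic media of vehicle-treated control mice, but not in cultured mouse cells. Here Il6 had 7 ChIP reads on 53 input reads, and its log2 fold change of -0.65 did not pass (edgeR adjusted p = 0.434). The measures differ, as reads were counted here over 1 kb either side of the start. From this ChIP-seq the paper listed Mmp9 among genes whose H3K9me2/input ratio was in the highest quartile. Here the unscaled summed ratio of Mmp9 was 0.40, above the upper quartile of 0.343, at percentile 79.1. By ChIP-qPCR the paper also reported abundant H3K9me2 at Mmp9 in cultured mouse cells, and none at MMP2 in cultured human cells.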
